A study of Sus scrofa with 12 samples.

Results

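The long noncoding RNA (lncRNA) genes expressed in pig longissimus dorsi, a long back muscle, were selected on level: they are the genes that the deposited table classes as lncRNA and that had a mean of at least 2 FPKM over 12 libraries. FPKM is a fragment count divided by gene length and library total, so it can be compared between genes. The rule took 121 of the 5293 listed lncRNA genes, in a table of 23271 genes. None of the 121 carried a symbol in that table, so they are named by identifier. Laiwu pigs, a Chinese breed known for fat-rich muscle, gave 6 libraries, and Yorkshire pigs, a lean Western breed, gave 6. All animals were described as equal in weight, and neither age nor sex was given. RNA came from frozen muscle and was selected with oligo(dT), so transcripts without a poly(A) tail were measured poorly or not at all. The labels name only breed and number and do not say that libraries came from separate animals, so a p-value measures the spread between these samples, which may be technical.

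Long noncoding RNAs are transcripts with no recognised protein-coding frame. Some act in the nucleus on chromatin, splicing or nuclear bodies, some act in the cytoplasm as binding partners of proteins or microRNAs, and in muscle several are known from mouse and human work to take part in the differentiation of myoblasts. In genomes annotated largely by RNA sequencing, such as that of the pig, a listed lncRNA gene can also be a part of a neighbouring coding gene's transcript, for example of a long 3′ untranslated region, so position beside coding genes is part of what defines the class.

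Each library held between 54961358 and 67285809 counts, of which the 121 lncRNA genes took 0.493% to 0.83%. The lowest count of any of them in any library was 23, and 113 of the 121 had at least 100 counts in every library. Of the markers of skeletal muscle, 4 of 5 were listed, at a summed 47400 to 65100 FPKM in Laiwu and 49700 to 67600 FPKM in Yorkshire. The liver genes ALB and APOA1 summed to 2.84 to 6.32 FPKM in Laiwu and 4.6 to 8.72 FPKM in Yorkshire. The 5 adipocyte markers summed to 28.6 to 156 FPKM in Laiwu and 20.1 to 57.5 FPKM in Yorkshire. The library Yorkshire 5 stood apart: its deviations from the breed mean fell with gene length, with a Spearman's rho across genes of -0.417, against -0.153 to 0.231 in the other 11. It was the lowest of the 12 libraries for 30 lncRNA genes and the highest for 20, and some results that rest on it are given with and without it.

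Expressed lncRNA genes were few, and most had a mean under 5 FPKM. Of the listed lncRNA genes, 2.29% reached 2 FPKM, against 44.4% of the listed coding genes (7554). The mean levels of the 121 had a median of 4.27 FPKM, with quartiles of 2.67 and 9.61 FPKM, and a maximum of 375.6 FPKM that 78 coding genes exceeded. A mean of at least 10 FPKM was reached by 27 lncRNA genes, 22 lay from 5 to under 10 FPKM and 72 lay under 5 FPKM. Only 5 exceeded 100 FPKM, and those 5 held 55.5% of the summed FPKM of the class. All 121 together held 0.596% of the FPKM of the whole table. At the limit of the rule, ENSSSCG00000054775 (2.02 FPKM) and ENSSSCG00000056542 (2.01 FPKM) were just inside, and ENSSSCG00000059963 (1.99 FPKM) and ENSSSCG00000057006 (1.99 FPKM) were just outside. Since these genes were chosen by level, their levels are given as a description.

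The lncRNA gene of highest level was ENSSSCG00000060056, on chromosome 2 at 6808245 to 6811483 of Sscrofa11.1, plus strand, inside the span that RefSeq gives to the lncRNA gene LOC100513133. Its lowest, median and highest levels were 271.9, 394 and 561 FPKM in the Laiwu libraries and 206, 348 and 486 FPKM in the Yorkshire libraries. On the other strand ENSSSCG00000056754 overlapped it by 3202 bases at 6804687 to 6811446. It had 65.7, 109 and 141 FPKM in Laiwu and 59.9, 94.2 and 122 FPKM in Yorkshire. The breed ranges overlapped for both genes. ENSSSCG00000057738 lay 277 bases from ENSSSCG00000056754 at 6797660 to 6804410 on the plus strand and was far lower, at 4.54 to 9.33 FPKM in Laiwu and 2.99 to 8.49 FPKM in Yorkshire. With breed means removed, the log2 levels of ENSSSCG00000057738 had Pearson's r of 0.71 with ENSSSCG00000056754 and of 0.57 with ENSSSCG00000060056, and the overlapping pair had r = 0.29. These 3 values are descriptions. Reads of overlapping genes on opposite strands can be told apart only if counting used the strand, which the sources at hand do not say.

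At lower coordinates on the same chromosome, 40480 bases from this group, lay ENSSSCG00000048856 (6751519 to 6757180, minus strand), inside RefSeq's lncRNA gene LOC102163816. It was the most variable of the 121 genes. Its levels fell into low and high libraries within both breeds: 8.55, 11.5 and 457 FPKM (lowest, median, highest) in Laiwu and 23.6, 49.4 and 435 FPKM in Yorkshire. The high libraries were Laiwu 2 (457 FPKM), Yorkshire 1 (396 FPKM) and Yorkshire 4 (435 FPKM), and the other 9 lay between 8.55 and 62.4 FPKM. With breed means removed, its r was -0.13 with ENSSSCG00000057738 and -0.34 with ENSSSCG00000056754. The Laiwu mean was 85.6 ± 182 FPKM and the Yorkshire mean 165 ± 195 FPKM (SD, n = 6 per breed), and the log2 fold change was -0.92 ± 1.22 (SE), with an adjusted p of 0.923 by edgeR. Laiwu 2 alone made the breeds overlap, so the gap without it follows from the choice of library left out. The share of all tested genes that separate in this way is not given. Without Laiwu 2 the levels were 8.55 to 13.9 FPKM in Laiwu and 23.6 to 435 FPKM in Yorkshire. The log2 fold change of ENSSSCG00000048856 was then -3.87 ± 0.87 with an adjusted p of 0.5996. Over all alternatives its adjusted p ran from 0.5996 to 0.999, so no setting made it a call.

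**Figure D1:**
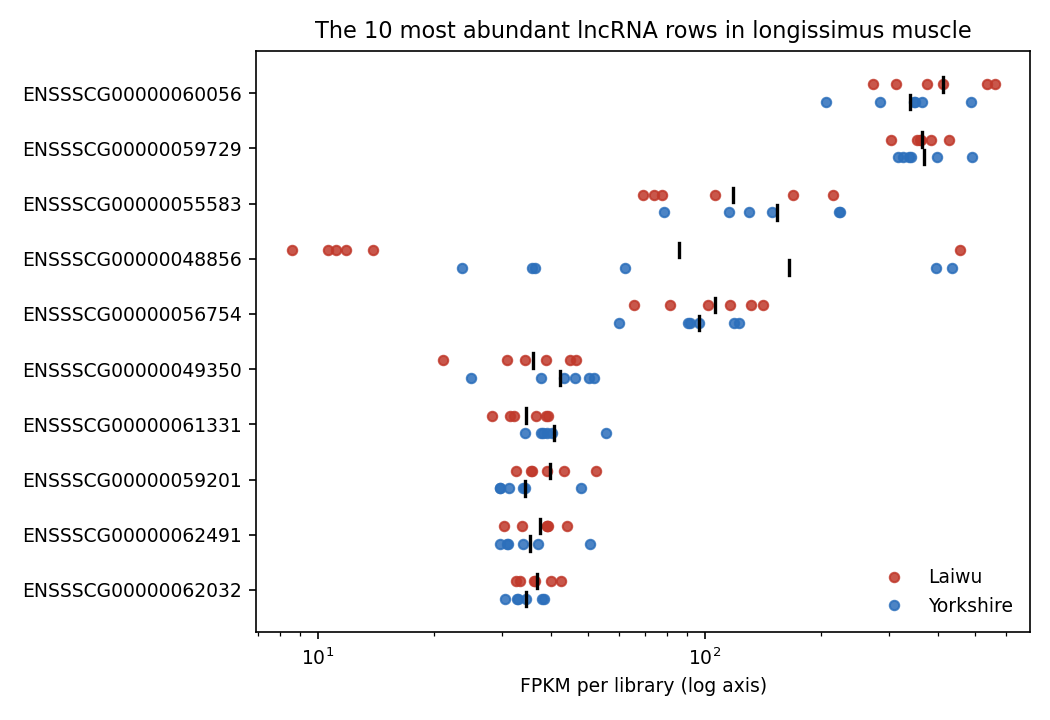
FPKM on a log axis of the 10 lncRNA genes with the highest means, 1 point per library, Laiwu above Yorkshire for each gene and the black bar at the breed mean. The breeds overlap for all 10, and ENSSSCG00000048856 splits into 3 libraries between 396 and 457 FPKM and 9 libraries between 8.55 and 62.4 FPKM.

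The other 7 of the 10 most abundant lncRNA genes lay at other loci. ENSSSCG00000059729 (chromosome 1, 137882497 to 137883910, minus strand) ended within 4 bases of the 3′ end of RefSeq's SYNM, the gene of the intermediate filament protein synemin, and lay on the opposite strand. It had 302, 362 and 426 FPKM in Laiwu and 315, 339 and 490.1 FPKM in Yorkshire, the highest value again being that of Yorkshire 5. The synemin gene itself, 1803 bases away, had a Laiwu mean of 100.1 ± 18.4 FPKM and a Yorkshire mean of 84.4 ± 33.9 FPKM (SD, n = 6 per breed), so the lncRNA gene stood above the coding gene beside it. ENSSSCG00000055583 (chromosome 6, 55325452 to 55327871, plus strand) overlapped no RefSeq gene and lay 3204 bases past the 3′ end of EMC10, a subunit of the complex that inserts membrane proteins at the endoplasmic reticulum. It had 69.2, 91.8 and 214 FPKM in Laiwu and 78.6, 139 and 224 FPKM in Yorkshire, and again the breeds overlapped.

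The next 5 in level lay between 35.7 and 39.2 FPKM. ENSSSCG00000049350 ended within 2 bases of the 3′ end of KCNJ12, an inward rectifier potassium channel, on the same strand. ENSSSCG00000059201 ended within 3 bases of that of DCAF8, a substrate receptor of a ubiquitin ligase, on the opposite strand. Its nearest tested coding gene was PEA15, and it lay 342 bases past PEA15 on the same strand. ENSSSCG00000061331 lay 633 bases past FEM1A, another substrate receptor of ubiquitin ligases, and ENSSSCG00000062491 lay 724 bases past MYPN, the Z-disc protein myopalladin, on the opposite strand. ENSSSCG00000062032 overlapped a RefSeq lncRNA gene, LOC110257452, and was among the steadiest of all, with 32.5 to 42.4 FPKM in Laiwu and 30.5 to 38.5 FPKM in Yorkshire. In 3 of these 5 (ENSSSCG00000061331, ENSSSCG00000059201 and ENSSSCG00000062491) Yorkshire 5 was the highest Yorkshire library by a wide gap, at 55.7, 47.8 and 50.4 FPKM against next values of 40.3, 34.2 and 37.0 FPKM.

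The position of the 121 genes was set beside that of the lncRNA genes of lower level. None of the 121 overlapped a coding gene tested in the deposited table, but the spans of 75 (62.0%) overlapped a coding gene as RefSeq draws it on the same assembly, and 34 (28.1%) ended within 50 bases of an end of that gene, 20 of them within 10 bases. A further 26 (21.5%) overlapped only a RefSeq noncoding gene, and 20 (16.5%) overlapped none. Among the 193 lncRNA genes from 0.5 to under 2 FPKM, 51.8% overlapped a RefSeq coding gene and 15.5% shared an end with one, and among the 4979 under 0.5 FPKM the shares were 25.8% and 2.59%. The share that overlapped nothing in RefSeq was 16.5%, 25.9% and 49.9% in the 3 classes of falling level. Of the 34 with a shared end, 31 could be tied to a coding gene of the deposited table, and 29 of these sat at its 3′ end, 21 on the same strand and 8 on the opposite strand. Whether such reads belong to the transcript of the coding gene was not tested. The 2 annotations are of the same assembly, since 13166 of 13171 coding symbols found in both overlapped in position.

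The coding neighbours as the deposited table draws them were counted in the same way. A tested coding gene lay within 50 kb of 89.3% of the 121, against 91.7% from 0.5 to under 2 FPKM and 53.8% under 0.5 FPKM. A tested coding gene lay within 5 kb of 87 of the 121 lncRNA genes (71.9%), against 64.8% from 0.5 to under 2 FPKM and 20.9% under 0.5 FPKM. Of the 121, 48 (39.7%) lay within 5 kb past the 3′ end of the coding gene on its own strand, against 23.3% and 6.67% in the lower classes. A further 24 of the 121 (19.8%) lay there on the opposite strand, against 18.1% and 4.16%. Within 5 kb upstream on the opposite strand lay 11 (9.09%), a smaller share than the 20.2% of the middle class and above the 7.03% of the lowest, and upstream on the same strand lay 4 (3.31%), against 3.11% and 3.07%. The length implied by count and FPKM was at least 0.9 of the genomic span, as in a gene with no or short introns, in 70 of the 121 (57.9%), in 52.9% of the next class and in 2.93% of the 10736 tested coding genes. These shares are counts of annotated genes and carry no test.

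**Figure D2:**
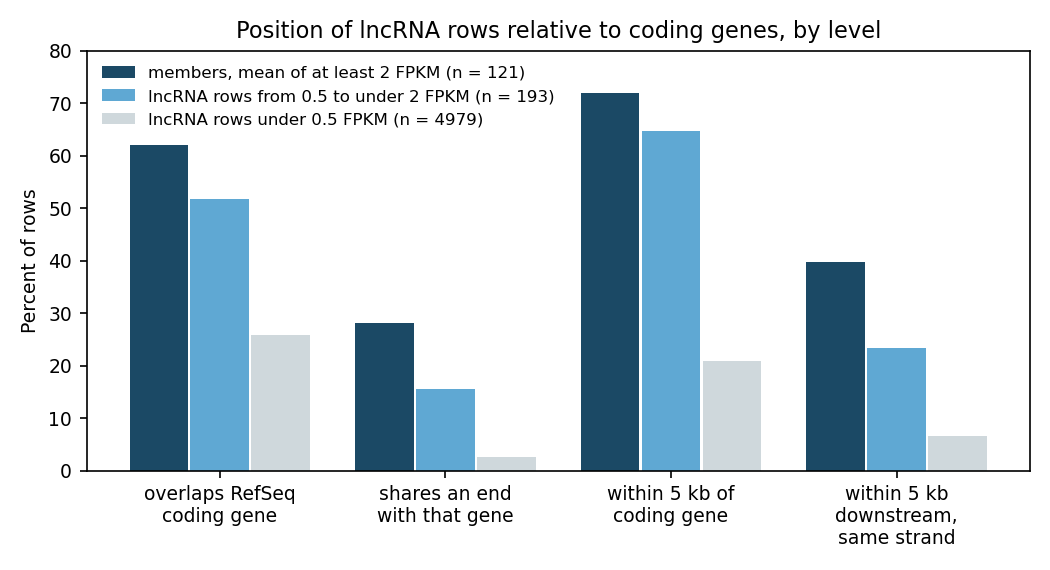
Percent of lncRNA genes in 3 classes of mean FPKM that overlap a RefSeq coding gene, share an end with it within 50 bases, lie within 5 kb of a tested coding gene of the deposited table, or lie within 5 kb past its 3′ end on the same strand. Each share is highest in the 121 expressed genes (62.0%, 28.1%, 71.9% and 39.7%) and lowest under 0.5 FPKM (25.8%, 2.59%, 20.9% and 6.67%).

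Coding neighbours were matched by symbol to short fixed lists of genes. The lists are not complete, as MYPN and synemin are on none of them. The share of all tested coding genes on the lists was not counted, so the matches are a description. Of the lists of contractile, myogenic, lipid, matrix, imprinted, ribosomal, splicing and immediate early genes, only the imprinted list held a neighbour, PEG3, an imprinted zinc finger gene that is expressed from the paternal allele in mammals. ENSSSCG00000041123 shared the 3′ end of PEG3 on the opposite strand and had 3.64, 4.38 and 5.03 FPKM in Laiwu and 2.69, 3.92 and 5.82 FPKM in Yorkshire. The most abundant coding gene within 5 kb of an lncRNA gene was PGAM2, the muscle form of the glycolytic enzyme phosphoglycerate mutase, at a mean of 1579 FPKM. ENSSSCG00000062807 lay 19 bases upstream of it on the opposite strand by the deposited coordinates, but inside the span that RefSeq gives to PGAM2. This lncRNA gene reached only 2.45, 5.35 and 7.59 FPKM in Laiwu and 2.21, 4.82 and 7.92 FPKM in Yorkshire. Whether its reads belong to PGAM2 was not tested.

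The other abundant neighbours within 5 kb were FEM1A (316 FPKM), MYPN (150.2 FPKM), synemin (92.3 FPKM), BNIP3 (91.5 FPKM), ENSSSCG00000034773 at the KCNJ12 locus (72.1 FPKM), SLC3A2 (60.0 FPKM) and DYRK1B (47.4 FPKM). BNIP3 encodes a receptor for the removal of mitochondria, and ENSSSCG00000027988, which lies 4365 bases from it on the opposite strand, had 3.75 to 4.77 FPKM in Laiwu and 3.76 to 5.69 FPKM in Yorkshire. SLC3A2 is the heavy chain of amino acid transporters, and ENSSSCG00000043175, 229 bases upstream on the opposite strand, had 1.52 to 3.09 FPKM in Laiwu and 1.62 to 5.66 FPKM in Yorkshire. DYRK1B is a protein kinase, and ENSSSCG00000051232, 928 bases past its end on the same strand, had 1.81 to 4.21 FPKM in Laiwu and 0.691 to 3.797 FPKM in Yorkshire. The breeds overlapped in all 3.

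A few loci carried known noncoding genes. ENSSSCG00000058584 on chromosome 7 (45975340 to 45982243, plus strand) spanned the RefSeq microRNA genes MIR206 and MIR133B, whose microRNAs are enriched in skeletal muscle. ENSSSCG00000049456, on the other strand, lay 1568 bases away at 45967564 to 45973772 and overlapped no RefSeq gene. The first had 2.92, 4.75 and 10.4 FPKM in Laiwu and 2.88, 5.07 and 9.84 FPKM in Yorkshire, and the second had 1.91, 3.41 and 7.08 FPKM in Laiwu and 2.12, 4.85 and 7.57 FPKM in Yorkshire. Both were highest in Laiwu 2, Laiwu 4 and Yorkshire 1, 2 and 4, and r between them was 0.86, the highest among the 10 pairs of expressed lncRNA genes within 50 kb of each other. Mature microRNAs have no poly(A) tail and were not measured here.

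ENSSSCG00000045052 on chromosome 7 (121656238 to 121660479, minus strand) lay in the RefSeq gene MEG3, an imprinted lncRNA that is expressed from the maternal allele in mammals. Its Laiwu mean was 2.28 ± 0.858 FPKM and its Yorkshire mean 1.98 ± 1.40 FPKM (SD, n = 6 per breed). The highest value was 3.48 FPKM in Laiwu and 4.53 FPKM in Yorkshire, and the log2 fold change was 0.18 ± 0.42 (SE), with an adjusted p of 0.968 by edgeR. Without Yorkshire 5, where it was lowest, the log2 fold change was -0.0018. TUG1, known as a lncRNA, is classed as coding in the deposited table, so it is not among the 121. ENSSSCG00000040413, 4783 bases past it on the opposite strand, had 4.65, 5.93 and 6.81 FPKM in Laiwu and 4.60, 5.49 and 6.36 FPKM in Yorkshire.

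Some expressed lncRNA genes varied from library to library with the coding gene beside them, but most pairs were not called. A nearest tested coding gene within 50 kb was found for 108 of the 121. Log2 CPM, the log of the count scaled to the library total, was taken as its difference from the breed mean, and each pair was tested by permuting libraries within breeds, two-sided, with Benjamini-Hochberg adjustment over the 108 pairs. At an adjusted p under 0.05, 19 pairs passed (17.6%), 18 with r above 0, from 0.56 to 0.908. At an unadjusted permutation p under 0.05, 32.4% of the lncRNA pairs passed, against 15.7% of 5626 pairs of coding neighbours. Within 5 kb the shares were 33.3% and 16.1%. Of the coding pairs, 0.924% passed after adjustment and 0.853% did so with r above 0, but there the adjustment ran over many more pairs. By Spearman's rho 12 of the 108 passed, and 8 passed by both measures. The difference between these shares was not tested.

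Of the 87 pairs within 5 kb, 72 had the lncRNA gene past the 3′ end of the coding gene, and so did all 17 called ones, 13 on the same strand and 4 on the opposite strand. The difference between the sides was not tested. A called pair just past 5 kb was upstream: ENSSSCG00000053597 lay 5566 bases from SLC38A4, an amino acid transporter gene, on the opposite strand. It had 0.236, 1.53 and 4.37 FPKM in Laiwu and 0.873, 2.26 and 4.36 FPKM in Yorkshire, with r = 0.82 (permutation p = 0.00571, adjusted p = 0.0363, n = 12) and rho = 0.62 (adjusted p = 0.166). This pair passed in 5 of the 12 fits that left out a library. The median r was 0.45 for the 48 pairs within 5 kb past the 3′ end on the same strand, against 0.18 for the 366 coding pairs in the same arrangement. It was 0.091 for the 24 downstream pairs on opposite strands and 0.24 for the 11 upstream pairs on opposite strands, against 0.086 and 0.13 for coding pairs. For lncRNA genes from 0.5 to under 2 FPKM it was 0.13 over 45 downstream pairs on the same strand within 5 kb. In that class it was 0.24 over 35 downstream and 0.19 over 39 upstream pairs on opposite strands. Over all 108 pairs it was 0.21, against 0.12 for coding pairs, and for the 177 pairs of lncRNA genes from 0.5 to under 2 FPKM it was 0.17. Where the lncRNA gene shared an end with a RefSeq coding gene, r with that gene had a median of 0.59 over 22 pairs on the same strand and of -0.020 over 8 pairs on opposite strands. Medians over pairs are descriptions, and all pairs share the same 12 libraries.

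The median r moved most without Yorkshire 5. Without it the median r over all lncRNA pairs was 0.43, against 0.10 for coding pairs, and over the downstream pairs on the same strand it was 0.62, against 0.15 for coding pairs. No other library moved the median of the lncRNA pairs outside 0.205 to 0.239. The number of called pairs moved most without Yorkshire 4, where it was 5. It was 12 without Laiwu 2, 10 without Laiwu 3, 12 without Laiwu 4, 12 without Yorkshire 1 and 26 without Yorkshire 5. Each of the 18 positive pairs was positive in both breeds, and none of the 19 changed sign when any 1 library was left out. Of the 19, the pairs of PPM1L, MFSD4B and AGO2 passed in all 12 fits that left out 1 library.

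**Figure D3:**
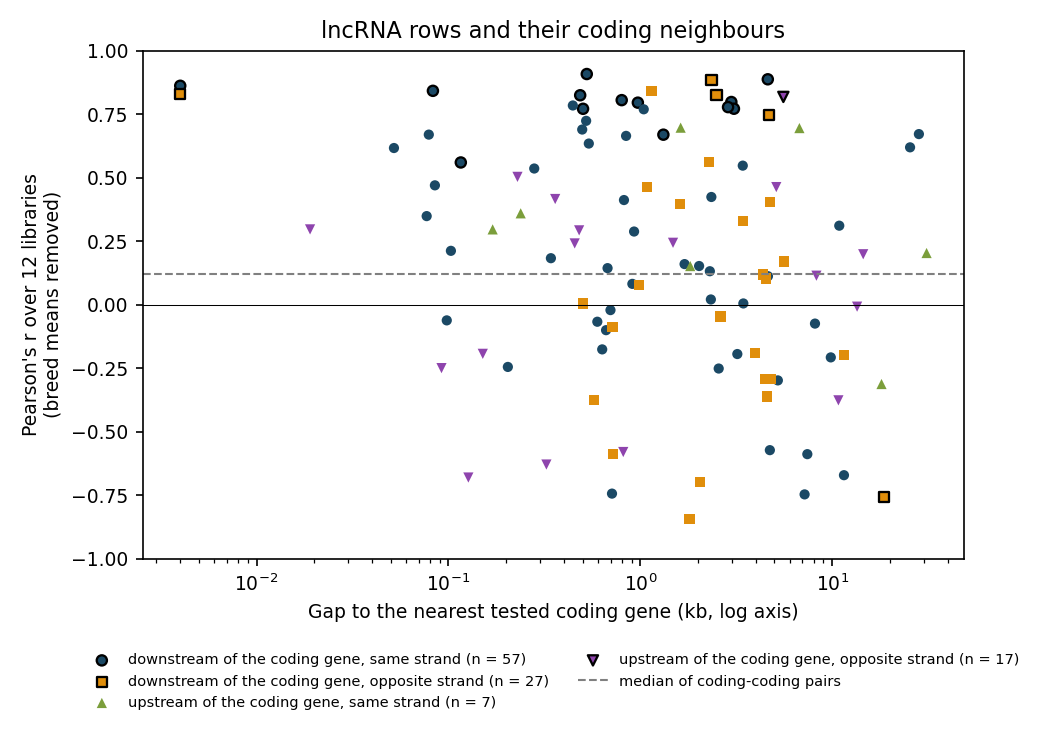
Pearson's r over 12 libraries, with breed means removed, between each of 108 lncRNA genes and its nearest tested coding gene, against the gap between them in kb on a log axis. Colour and shape give side and strand, a black edge marks an adjusted permutation p under 0.05, and the dashed line is the median of the coding pairs at 0.12. The edged points within 5 kb are all downstream of the coding gene.

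The pair with the highest r was ENSSSCG00000054668 (chromosome 13, 100756565 to 100759966, plus strand) and PPM1L, a protein phosphatase gene. The lncRNA gene begins 526 bases past PPM1L and ends within 2 bases of the 3′ end that RefSeq gives it. It had 4.29, 5.49 and 6.43 FPKM in Laiwu and 2.93, 4.25 and 4.79 FPKM in Yorkshire. Their r was 0.91 (permutation p = 0.00022, adjusted p = 0.0119, n = 12), with rho = 0.84 (permutation p = 0.00199, adjusted p = 0.0285). It was 0.96 within Laiwu and 0.95 within Yorkshire by exact permutation (p = 0.00972 and p = 0.0153, n = 6 each), and 0.91 without the 2 libraries farthest from the median.

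The 3′ end of MAFG, a small Maf transcription factor, was shared by ENSSSCG00000059540, 83 bases past the listed coding gene. It had 3.27, 5.03 and 6.80 FPKM in Laiwu and 3.23, 5.25 and 6.78 FPKM in Yorkshire, and the pair had r = 0.84 (permutation p = 0.00029, adjusted p = 0.0119, n = 12) and rho = 0.92 (adjusted p = 0.00936). It was 0.71 without the 2 farthest libraries, and the adjusted p was 0.0573 without Yorkshire 4, the only 1 of the 12 fits leaving out a library in which the pair did not pass. MFSD4B, a sugar transporter of the major facilitator family, lay 4619 bases from ENSSSCG00000054646, which had 1.85, 3.14 and 5.67 FPKM in Laiwu and 1.23, 2.19 and 4.91 FPKM in Yorkshire. Here r was 0.89 (permutation p = 0.0004, adjusted p = 0.0119, n = 12), rho was 0.87 (adjusted p = 0.0225) and r without the 2 farthest libraries was 0.80. Laiwu 5 and Yorkshire 3 were the highest of their breeds for this lncRNA gene.

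AGO2, the Argonaute protein that carries small RNAs to their targets, lay 486 bases from ENSSSCG00000051090 on chromosome 4 (3015820 to 3022180, plus strand). The lncRNA gene had 1.42, 2.27 and 2.92 FPKM in Laiwu and 0.536, 2.30 and 2.66 FPKM in Yorkshire. The pair had r = 0.82 (permutation p = 0.00044, adjusted p = 0.0119, n = 12), and r was 0.62 without the 2 libraries farthest from the median. It was 0.75 without Yorkshire 5, the lowest library for both genes. Its rho was 0.73 (adjusted p = 0.0504). The coding gene that overlaps ENSSSCG00000051090 in RefSeq is CHRAC1, on the opposite strand. With CHRAC1 its r was -0.39, which was not tested. Across the same span on the minus strand lay ENSSSCG00000062147, overlapping by 5859 bases, at 2.55 to 3.89 FPKM in Laiwu and 2.52 to 3.76 FPKM in Yorkshire. Between the 2 overlapping lncRNA genes r was -0.023.

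ENAH, the actin regulator Mena, showed the same relation with a gene of the other strand. ENSSSCG00000046945 ended within 1 base of the 3′ end of RefSeq's ENAH and had 4.58, 6.61 and 15.96 FPKM in Laiwu and 3.90, 6.04 and 25.9 FPKM in Yorkshire. It was highest in Laiwu 5, Yorkshire 3 and Yorkshire 5 and varied by a mean within-breed CV of 69.7%. The pair had r = 0.83 (permutation p = 0.00072, adjusted p = 0.0156, n = 12) and rho = 0.87 (adjusted p = 0.00936), and r without the 2 farthest libraries was 0.86. Without Yorkshire 3 the adjusted p was 0.0569. Since the strand used in counting is not given, reads of ENAH and of this gene cannot be told apart from the table alone.

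**Figure D4:**
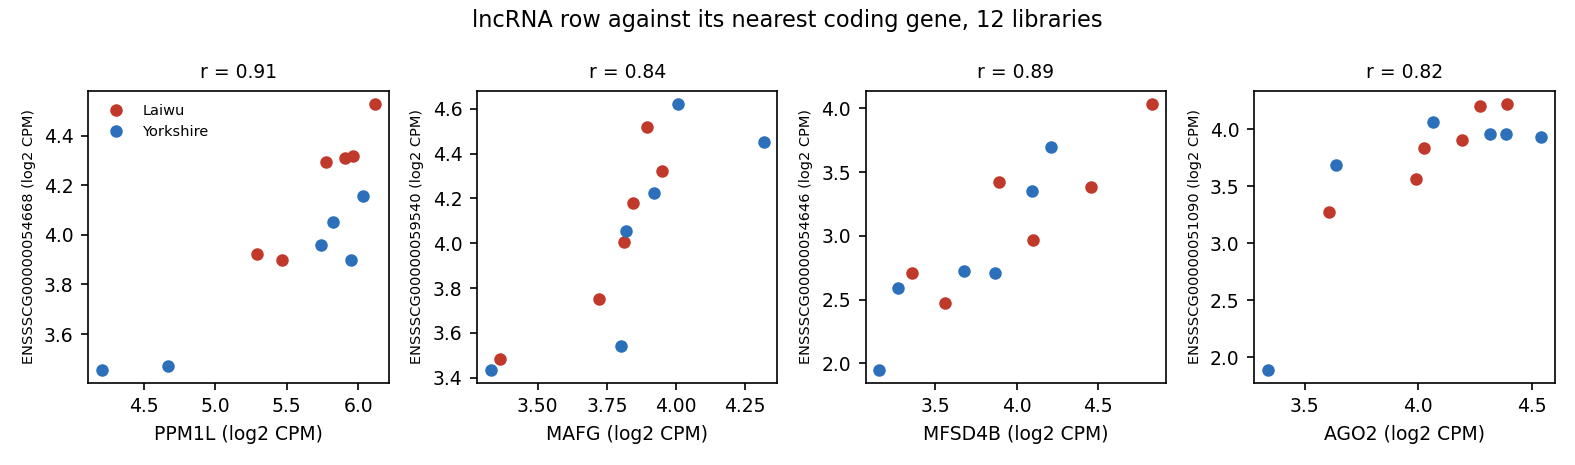
Log2 CPM of 4 lncRNA genes (vertical) against their nearest coding genes PPM1L, MAFG, MFSD4B and AGO2 (horizontal), 1 point per library, with r after removal of breed means above each panel. The points of both breeds lie along the same rising course, with r of 0.91, 0.84, 0.89 and 0.82.

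Pairs that went in opposite directions were fewer. The only called one was ENSSSCG00000057738 with FRMD8, 18557 bases away (r = -0.76, permutation p = 0.00723, adjusted p = 0.0434, n = 12), which passed in 1 of the 12 fits that left out a library. The lowest r of all was that of ENSSSCG00000059729 with the synemin gene, at -0.84 (permutation p = 0.00977, adjusted p = 0.0512, n = 12). It was -0.53 without Yorkshire 5, in which the lncRNA gene was highest and the synemin gene had 19.1 FPKM, its lowest value. It was -0.25 without the 2 farthest libraries, so the size of r depended on those libraries. Within Laiwu, which does not hold Yorkshire 5, r was -0.68 (exact permutation p = 0.118). Over all 12 libraries rho was -0.78 (permutation p = 0.0115, adjusted p = 0.054).

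No expressed lncRNA gene was called different between Laiwu and Yorkshire muscle. By edgeR 0 of 121 passed an adjusted p under 0.05, as did 0 of all 11205 tested genes (0.0%), and the lowest adjusted p among the 121 was 0.912. At an unadjusted p under 0.05, 3 of the 121 passed (2.48%), against 4.44% of all tested genes. Of the 3, 2 were higher in Laiwu (2.14% of all tested genes were) and 1 was lower (2.3% of all were). DESeq2 called 0 of the 121 and limma called 0, with 4 and 3 at an unadjusted p under 0.05. For DESeq2 and limma the share of all tested genes at that unadjusted limit is not given. The fitted log2 fold change was above 0 for 64 (52.9%, against 49.7% of all tested genes) and below 0 for 57, with a median of 0.028 (-0.0013 over all tested genes). None of the 121 reached an absolute log2 fold change of 1 (0.535% of all tested genes did), and none had breeds that did not overlap (0.178% of all did). The median SE of a log2 fold change was 0.19 among the 121. In simulated counts of all tested genes, edgeR recovered 11.5% of 1.5-fold changes, so 0 calls do not show that the breeds are equal. Among the 10 most abundant, the log2 fold change ran from -0.92 (ENSSSCG00000048856) to 0.26 ± 0.20 (ENSSSCG00000060056), with adjusted p from 0.912 to 0.978. Those of ENSSSCG00000059729 (-0.035 ± 0.13) and ENSSSCG00000056754 (0.096 ± 0.22) changed sign when 1 library was left out. In bulk muscle, fewer cells of a type and less RNA per cell cannot be told apart.

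**Figure D5:**
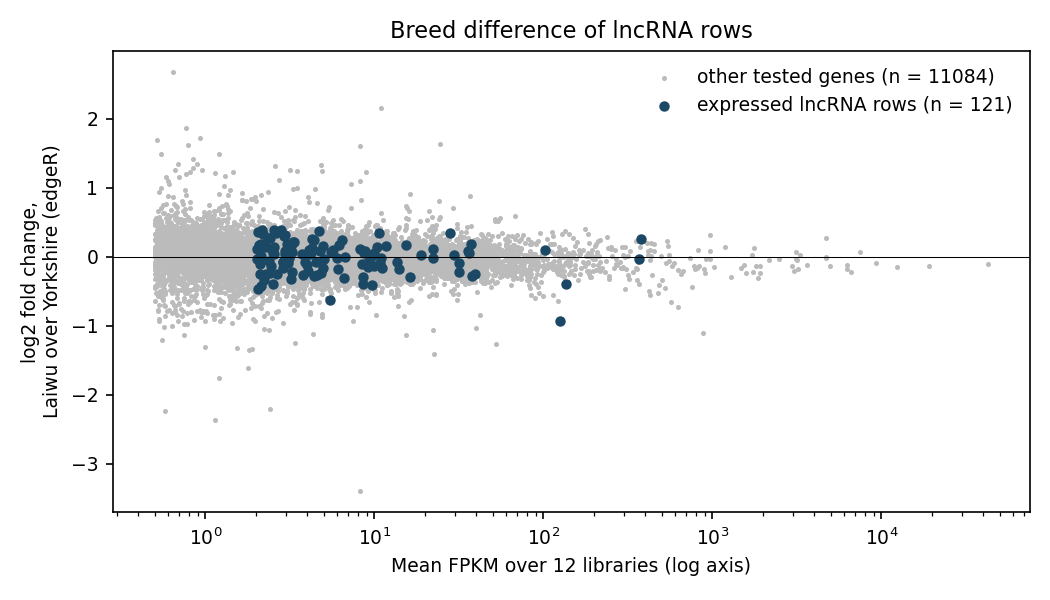
Log2 fold change, Laiwu over Yorkshire, against mean FPKM on a log axis for the 121 expressed lncRNA genes and the other tested genes. The lncRNA genes lie between -0.92 and 0.39, around the median of 0.028, and none is called.

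The smallest p among genes higher in Laiwu was that of ENSSSCG00000060465 (chromosome 3, 113180827 to 113184789, plus strand), 85 bases past ASXL2, a chromatin regulator, and within 20 bases of its RefSeq 3′ end. It had 2.02, 2.29 and 2.66 FPKM in Laiwu and 1.36, 1.70 and 2.36 FPKM in Yorkshire, and the breeds overlapped. The log2 fold change was 0.37 ± 0.12 (SE), with an adjusted p of 0.912 by edgeR. The gene next to PPM1L had 0.37 ± 0.15 with the same adjusted p. PPM1L itself had a Laiwu mean of 4.16 ± 0.812 FPKM and a Yorkshire mean of 3.49 ± 1.43 FPKM (SD, n = 6 per breed). These were the 2 with an unadjusted p under 0.05. The next 3 were ENSSSCG00000057454 at UBN2, a histone chaperone gene (0.22 ± 0.11), ENSSSCG00000061754 at NFIB, a transcription factor gene (0.27 ± 0.15), and ENSSSCG00000054762 at PHACTR2, an actin-binding phosphatase regulator (0.38 ± 0.22), each with an adjusted p of 0.912. The gene at NFIB had 2.53 to 2.82 FPKM in Laiwu and 1.497 to 2.78 FPKM in Yorkshire. Yorkshire 6 alone made the breeds overlap, and without it the Yorkshire range ended at 2.48 FPKM. That gap follows from the choice of library left out. The share of all tested genes that separate in this way is not given.

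Among genes lower in Laiwu, the smallest p was that of ENSSSCG00000017515 on chromosome 12 (23968410 to 23971494, plus strand), which the deposited table classes as lncRNA but describes as TBK1 binding protein 1, and which ends within 1 base of the 3′ end of RefSeq's coding gene TBKBP1. It had 6.52, 7.64 and 9.42 FPKM in Laiwu and 7.89, 9.07 and 11.9 FPKM in Yorkshire. The log2 fold change was -0.29 ± 0.13 (SE), with an adjusted p of 0.912 by edgeR, and this was the 1 gene lower in Laiwu at an unadjusted p under 0.05. ENSSSCG00000027988 near BNIP3 had -0.26 ± 0.12, ENSSSCG00000061331 near FEM1A had -0.27 ± 0.14 and ENSSSCG00000055905 on chromosome 4 had -0.23 ± 0.12, all with the same adjusted p. Yorkshire 5 was the highest library for ENSSSCG00000017515, ENSSSCG00000061331 and ENSSSCG00000055905. With 1 library left out, their log2 fold changes ran from -0.36 to -0.19, from -0.33 to -0.14 and from -0.28 to -0.13. ENSSSCG00000056683 on chromosome 5, in RefSeq's lncRNA gene LOC110260773, had the second most negative value of those named, -0.62 ± 0.39, with 1.105, 5.01 and 7.09 FPKM in Laiwu and 4.42, 5.72 and 10.9 FPKM in Yorkshire. Its low libraries were Laiwu 3 and Laiwu 6, and of the other 4, 3 lay within the Yorkshire range and Laiwu 4 just under it.

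The spread within a breed was described for each gene. The mean of the 2 within-breed coefficients of variation (CV) had a median of 23.9% over the 121, against 17.1% over coding genes of at least 2 FPKM. It was 21.3% for those sharing an end with a RefSeq coding gene, 20.3% for the other overlapping ones, 35.2% for those overlapping only noncoding RefSeq genes and 27.5% for those overlapping none. A CV over 50% was found for 12 genes and one under 15% for 23. Next to ENSSSCG00000048856 (166%), the highest was ENSSSCG00000044722 on chromosome 13 (74.3%), with 0.793, 11.8 and 27.8 FPKM in Laiwu and 3.37, 10.999 and 31.3 FPKM in Yorkshire. The steadiest were ENSSSCG00000053585 near LIFR, the receptor of leukemia inhibitory factor (7.75%, 9.91 to 11.8 FPKM in Laiwu and 9.58 to 11.9 FPKM in Yorkshire), ENSSSCG00000060976 at PPM1A, a protein phosphatase gene (7.84%), and ENSSSCG00000062032 (9.76%).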

How the data were processed

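Poly(A)-selected RNA of longissimus dorsi was sequenced in 6 Laiwu and 6 Yorkshire samples, grouped by the breed label. Per the labels' protocols the kit marks strand with dUTP. The series' design text names FastQC for filtering and HISAT2 2.2.1 for alignment to Sscrofa11.1. Further tools in the submitters' processing notes, listed with no step, are StringTie 1.3.4d, cutadapt 1.9, edgeR and DESeq2. The counting program, its strand setting and its annotation release were not given in the sources used here. Per the file headers, the deposited table holds a raw count and an FPKM value, which the authors computed per gene and library. Coordinates are those of the deposited table. RefSeq genes of Sscrofa11.1 were matched to them by overlap.

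All genes whose mean reached 0.5 FPKM (11205, including all 121 lncRNA genes) were tested with edgeR 4.0.16 (TMM, robust quasi-likelihood), Laiwu minus Yorkshire, with Benjamini-Hochberg adjustment over all of them. SEs were derived from each fold change and F statistic. Pair tests used log2 CPM with a prior count of 2 and 100000 permutations within breeds (20000 with 1 library left out and for coding pairs), and exact permutations within 1 breed, where 0.00139 is the smallest p. Both tests were run on simulated data. For the breed test, 200 of the 11205 genes were changed by a set fold in simulated counts. At an adjusted p under 0.05, edgeR recovered 11.5% of 1.5-fold, 80.0% of 2-fold and 97.0% of 4-fold changes. R 4.3.3, limma 3.58.1, DESeq2 1.42.0, Python 3.11.15 and matplotlib 3.10.9 were used. The CV is the SD over the mean of FPKM.

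Genes named were the 10 of highest level, the 5 of smallest p in each direction and the gene in MEG3, a known lncRNA, by RefSeq position. The expressed lncRNA genes carried no symbol to match, so other known lncRNAs may be among them. Also named were the 4 at the limit of the rule and the 8 near the most abundant coding genes. The 3 most and 3 least variable genes and the 5 pairs of smallest p were named as well. Other named genes were chosen after their values were seen. The members, lists and rules were chosen with earlier results of these data known. Alternatives were other scalings, filters, tests, units and pair distances, a replicate block and leaving out each library. Promoter motifs were not analysed here. A count of 0 allows up to 3 counts, and such limits cover counting error only.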

Additional observations from a re-analysis of the deposited data

Results flagged for a closer look

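In each breed the named lncRNA genes were examined for a library far from the other 5. Of 64 such groups of 6 libraries, 6 had one. A rate of 1 in 20 would give 3.2, but that rate holds for independent groups of normal values. These groups share the same 12 libraries, and some of the genes were chosen for high variation or a small pair p. The 3.2 is therefore no expectation for them. ENSSSCG00000048856 reached 457.4 FPKM in Laiwu 2, and the next Laiwu library had 13.9 FPKM. The other 5 were all due to Yorkshire 5. It was the highest Yorkshire library for ENSSSCG00000061331 near FEM1A (55.66 FPKM, next 40.3), ENSSSCG00000059201 near DCAF8 (47.75 FPKM, next 34.2), ENSSSCG00000062491 near MYPN (50.4 FPKM, next 37.0) and ENSSSCG00000043175 near SLC3A2 (5.661 FPKM, next 2.71). It was the lowest for ENSSSCG00000051090 near AGO2 (0.5355 FPKM, next 1.87). The part of gene length in these 5 values was not tested.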

How the results depend on the processing

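With 6 libraries a breed and a median SE of 0.19, log2 differences of the size fitted here were mostly within error. The number of called lncRNA genes was 0 in all alternatives run, and the lowest adjusted p of any was 0.4985. Over all tested genes DESeq2 called 1. The number of lncRNA genes at an unadjusted p under 0.05 ran from 2 to 6 when 1 library was left out. It was 1 among those of at least 5 FPKM and 5 among those of at least 1 FPKM, which are other sets of genes. The shares of all tested genes in the same fits are not given, so these counts are only a description. With 1 library left out the median log2 fold change ran from -0.006854 to 0.04726, reversing without Laiwu 2 and without Yorkshire 6 (-0.002008), and it reversed among those of at least 5 FPKM (-0.01768). The cause was not tested. Genes with breeds that did not overlap numbered 0 to 1, and the share over all tested genes in the same alternatives is not given. Called pairs numbered 12 by Spearman's rho and 5 to 26 with 1 library left out, and the median r was 0.205 to 0.4303. Of 20 named genes, 17 kept their sign in all fits. ENSSSCG00000059729 ran from -0.08202 to 0.08594 (0.0211 without Laiwu 6, 0.08594 without Yorkshire 5), ENSSSCG00000056754 from -0.03345 (without Yorkshire 3) to 0.2032, and ENSSSCG00000045052 from -0.001826 (without Yorkshire 5) to 0.6582.

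With the replicate number as a block, 0 lncRNA genes were called, 4 had an unadjusted p under 0.05 and the median log2 fold change was 0.021. The share of all tested genes with an unadjusted p under 0.05 in that fit is not given. Same-numbered libraries did not deviate together (correlations from -0.272 to 0.331), and 2 of 12 libraries correlated best with their own number, so the numbers were not taken as pairs.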
